A study of Mus musculus with 9 samples.

Results

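The 10 genes described here encode the insulin receptor and its relatives. They are the receptors Insr, Igf1r and Igf2r, the insulin receptor substrates Irs1 and Irs2, the hormone Igf1 and the IGF binding proteins Igfbp1, Igfbp3, Igfbp4 and Igfbp5. The genes were chosen by name, as a functional group, with earlier results of these data known. They come from the 21950 genes with an mRNA row, and all 10 passed the minimum mean of 0.1 FPKM that left 14537 genes for testing. FPKM, the number of fragments scaled to the exon length of a transcript and to the mapped fragments of the library, is a level per length, so it can be set side by side between genes. The libraries came from the renal cortex of male C57BL/KsJ mice, 1 library per mouse and 3 mice per group, all 15 weeks old. Control mice were db/m littermates, which carry a heterozygous mutation in the leptin receptor (db), remained nondiabetic and received no rosiglitazone. Whether they were given vehicle is not given in the sources used here. The dbdb mice were homozygous for db and were given vehicle by gavage. The dbR mice were also homozygous for db and were given rosiglitazone, a drug that activates the nuclear receptor PPARγ, by gavage at 20 mg/kg/day. Treatment began at 7 weeks of age and lasted 8 weeks. The db mutation acts in the whole animal, so that obesity, diabetes and the loss of leptin signalling came together in both db/db groups, and a db/m group given rosiglitazone was not analysed here.

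Insulin binds the insulin receptor, a receptor tyrosine kinase that phosphorylates the insulin receptor substrates, and these recruit PI 3-kinase and thereby activate AKT. AKT keeps the FoxO transcription factors out of the nucleus, and genes such as Igfbp1, Irs2, Pck1 and G6pc, which FoxO factors activate, are therefore held down by insulin in liver. IGF-I acts through the related receptor encoded by Igf1r, the receptor encoded by Igf2r carries IGF-II to lysosomes without signalling through a kinase, and the IGF binding proteins hold IGFs in the circulation and in tissue until they are released, partly by proteases. In kidney, the proximal tubule makes glucose and takes up insulin, and the glomerulus, the interstitial capillaries and the distal nephron also carry receptors for insulin and IGF-I.

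The promoters of 9 of the 10 genes were in the RefSeq promoter table (GRCm38.p6), which holds 250 bases before and 50 bases after each start site. Insr had no entry. These windows were searched on both strands for CAAAACA, the core of the insulin response element through which FoxO factors bind the Igfbp1 promoter, and for GTAAACA, the core preferred by the FoxO family. CAAAACA was present in the windows of Igfbp1, Irs1 and Irs2 and in 6.28% of the 32851 promoters of the table. GTAAACA was in none of the 9 windows and in 3.65% of the table. The motifs differ in their first letters, so that no stretch of bases matches both. The windows of Igfbp1, which holds the classical element, of Irs1, which holds 2 matches and was upregulated in both db/db groups, and of Igfbp4, the most highly expressed of the genes, are shown 5′ to 3′ in the direction of the gene, with each match to CAAAACA in capitals. On the opposite strand the match is written in reverse complement. They lie at chr11:7197537-7197836 (plus strand), chr1:82291390-82291689 (minus strand) and chr11:99040994-99041293 (plus strand).
Igfbp1: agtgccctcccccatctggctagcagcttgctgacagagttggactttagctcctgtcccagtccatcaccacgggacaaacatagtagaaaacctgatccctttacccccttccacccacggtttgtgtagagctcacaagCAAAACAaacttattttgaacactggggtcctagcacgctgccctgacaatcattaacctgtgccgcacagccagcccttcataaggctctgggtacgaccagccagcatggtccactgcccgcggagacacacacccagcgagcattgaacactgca
Irs1: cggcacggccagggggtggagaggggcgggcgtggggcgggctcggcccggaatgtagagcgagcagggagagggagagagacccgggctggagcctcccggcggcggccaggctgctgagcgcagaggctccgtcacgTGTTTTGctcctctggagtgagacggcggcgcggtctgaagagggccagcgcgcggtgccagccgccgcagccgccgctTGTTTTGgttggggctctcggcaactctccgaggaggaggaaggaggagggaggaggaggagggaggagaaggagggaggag
Igfbp4: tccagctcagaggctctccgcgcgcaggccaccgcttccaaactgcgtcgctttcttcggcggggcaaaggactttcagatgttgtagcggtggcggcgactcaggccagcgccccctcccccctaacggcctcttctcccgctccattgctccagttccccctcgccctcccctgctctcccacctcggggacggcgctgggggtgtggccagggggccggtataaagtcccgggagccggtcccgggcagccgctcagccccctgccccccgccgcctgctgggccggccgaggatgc
The match in Igfbp1 begins 108 bases before the start site, those in Irs1 begin 111 and 32 bases before it, and the match in Irs2 begins 37 bases before it. The windows also differed in base composition. Those of Igfbp1, Igf1 and Igfbp5 had 54.3%, 52.3% and 56.3% G and C with 8, 6 and 10 CpG sites, near the median of the table at 52.7% and 7 sites. The other 6 windows had between 70.7% and 76% G and C and between 27 and 48 CpG sites.

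The libraries had an estimated depth of 24.6 M to 30.6 M fragments, read from the steps between the lowest FPKM values. The mitochondrial transcripts held 26.9% to 32.8% of the mRNA FPKM. Markers of the proximal tubule summed to between 2794 and 3489 FPKM in every library, but single markers moved with the groups in both directions. In dbdb vs. control 3 of 9 were called lower, Slc22a6, Slc7a13 (-2.98 on the log2 scale) and Cyp7b1 (-4.19), against 13.4% of all genes. Another 2 were called higher, Slc5a2 (0.42) and Slc5a12 (0.55), against 13.1% of all genes. Of the inner medulla markers, the 3 tested (Aqp4, Cryab and Akr1b3) were called lower in both comparisons with control, against 13.4% and 11.8% of all genes. The list summed to 83.7 to 124 FPKM in control, 47.9 to 49.9 FPKM in dbdb and 45.2 to 55.1 FPKM in dbR, while Slc14a2, its defining urea transporter, was below the minimum level. Their part in the results was not tested. The other tissues were scarce, and the adipocyte markers summed to at most 3.01 FPKM, the adrenal markers to at most 1.38 FPKM and the lymphocyte markers to at most 3.09 FPKM. In dbdb replicate 3 the dendritic cell marker H2-Aa stood at 93.7 FPKM, against 6.68 to 24.9 FPKM in the other 8 libraries, and that library was also at the edge of its group for all 10 genes, the highest for Igf1, Igfbp3 and Igfbp4 and the lowest for the other 7. Calls that changed without it are given both ways. No dbdb library enters the estimate of dbR vs. control. Leaving replicate 3 out there kept the estimates and moved the p-values with the spread shared by the groups.

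The levels of the 10 genes covered a wide range. Igfbp4 was the highest in every group, with 283 ± 12 FPKM in control, 393 ± 37.7 in dbdb and 391.6 ± 17.1 in dbR (mean ± SD, n = 3), followed by Igfbp5 at 120 ± 9.04, 105 ± 4.30 and 114 ± 4.08 FPKM. Below them came Igf1r, Igfbp3 and Igf2r, then Insr, and then Irs2, Igfbp1, Irs1 and Igf1, all with group means below 10 FPKM. Neighbours in this order were often not separate. In control the values of Igf1r and Igfbp3, of Igfbp3 and Igf2r, of Irs2 and Igfbp1, and of Igf1 and Irs1 overlapped between the 3 mice. The order also moved between groups. Igfbp3 was the fourth gene in control and dbdb and the third in dbR, where its values still overlapped those of Igf1r, and the lowest gene was Irs1 in control and Igf1 in both db/db groups. Across the group means, the widest range on the log2 scale was 0.79 for Igfbp1, followed by 0.62 for Irs1, 0.57 for Igfbp3 and Igf1 and 0.47 for Igfbp4, and the narrowest was 0.06 for Irs2.

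**Figure D1:**
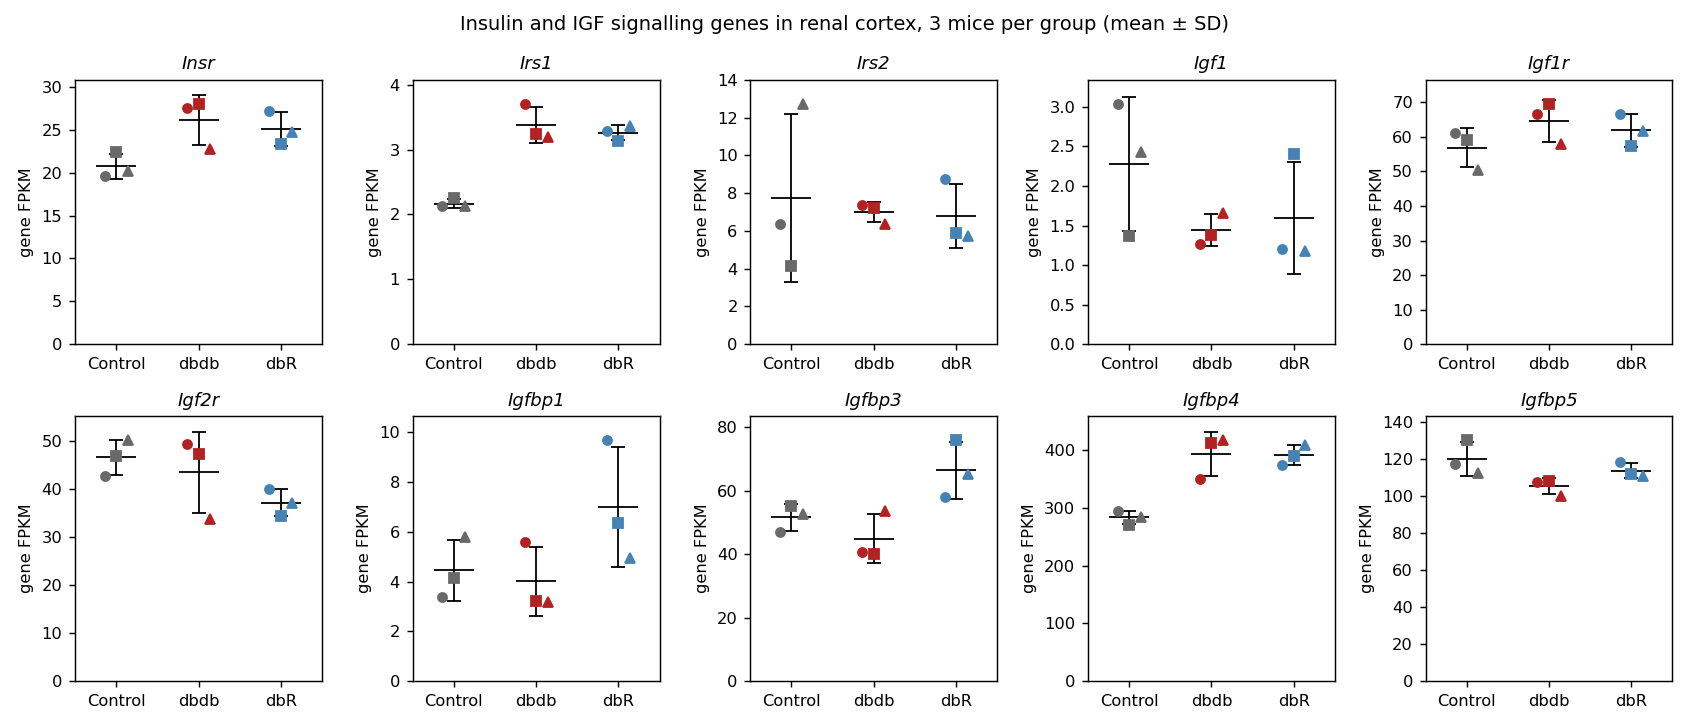
Gene FPKM (vertical axes, from 0, a scale per gene) of the 10 genes in the 3 libraries of each group (horizontal axes), with circles, squares and triangles for replicates 1, 2 and 3 and black bars for the mean ± SD. Irs1 and Igfbp4 lie higher in every dbdb and dbR library than in every control library, Igfbp3 is highest in the dbR libraries, and Irs2 and Igf1 spread most within the control group.

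Each group pair was compared in a single limma model for all 14537 genes, on log2(FPKM + 0.1), with Benjamini-Hochberg adjustment over all genes and a call at an adjusted p under 0.05. The added 0.1 pulls the fold changes of low genes towards 0. In dbdb vs. control, 3 of the 10 genes were called, all higher (Insr, Irs1 and Igfbp4), against 26.4% of all genes called, 13.1% higher and 13.4% lower. The groups did not overlap for 4 of the 10 (these 3 and Igfbp5, which lay lower), against 42.4% of all genes. In dbR vs. dbdb, limma called 0 of the 10, and 2 had an unadjusted p under 0.05 (Igfbp1 and Igfbp3), against 0.743% of all genes called, 0.564% higher and 0.179% lower. The groups did not overlap for Igfbp3 and Igfbp5, against 22.7% of all genes. In dbR vs. control, Irs1 and Igfbp4 were called, both higher, against 24.1% of all genes called, 12.3% higher and 11.8% lower, and the groups did not overlap for 5 of the 10, against 41.9% of all genes. The median log2 fold change of the 10 genes was -0.06 in dbdb vs. control, -0.03 in dbR vs. dbdb and 0.20 in dbR vs. control, where the median of all genes lay within 0.01 of 0 in each. The shares of the 10 genes that were called are near those of all genes. The dbdb libraries enter 2 of the comparisons and the control libraries also 2, so the comparisons are not independent and their values are set side by side only. With the libraries left without mitochondrial transcripts and scaled to equal sums, the median of all genes shifted to 0.15 for dbdb and 0.09 for dbR against control, and the share of called genes that were higher moved from 49.5% to 78.3% and from 51.1% to 70.5%. Relative to those medians Irs1 was at 0.62 and 0.57, and Igfbp4 at 0.48 and 0.47. Scaling to the 75th percentile gave 62.3% higher in dbR vs. control.

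**Figure D2:**
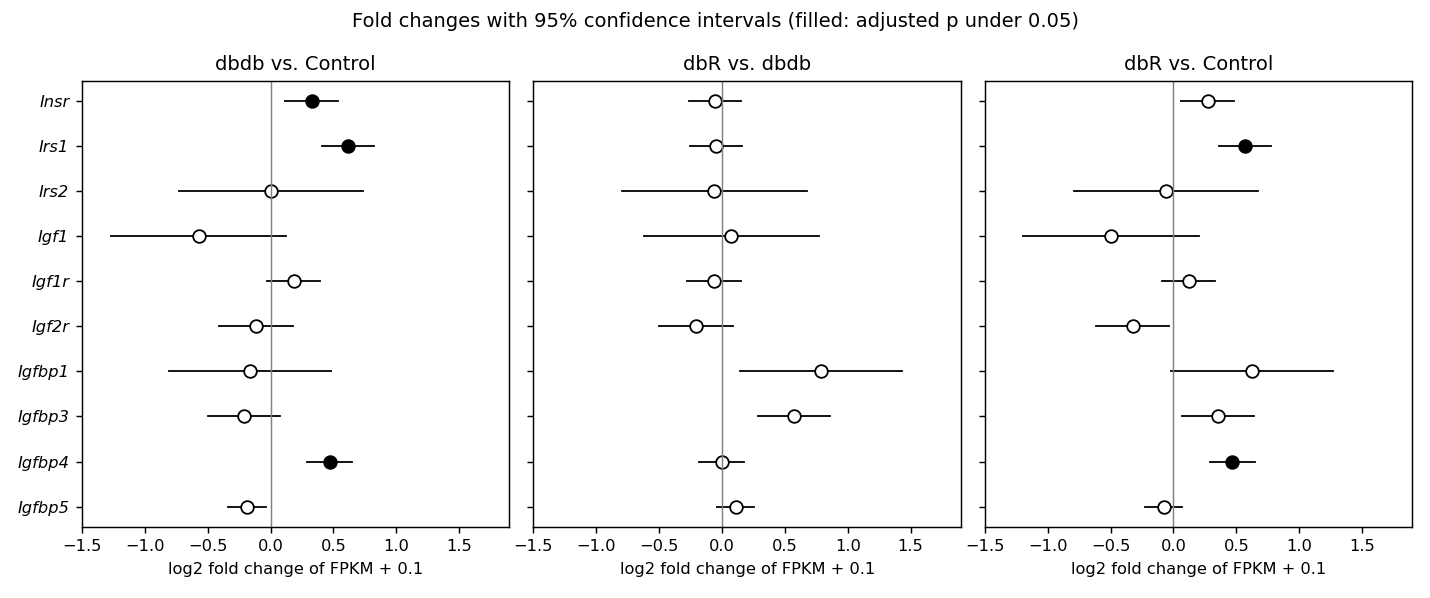
Log2 fold change of FPKM + 0.1 (horizontal axes) of the 10 genes (vertical axis) in dbdb vs. control, dbR vs. dbdb and dbR vs. control, as the limma estimate with its 95% confidence interval, and filled where the adjusted p was under 0.05. Irs1 and Igfbp4 are filled in both comparisons with control and lie near 0 in dbR vs. dbdb, where Igfbp1 and Igfbp3 have the highest estimates.

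Insr, which encodes the insulin receptor, lies on chromosome 8 (GRCm38, 3122061 to 3279617, minus strand), and the files hold a single mRNA transcript of it. Its level was 19.6, 22.4 and 20.2 FPKM in the control libraries, 27.5, 28.0 and 22.8 FPKM in the dbdb libraries and 27.2, 23.3 and 24.8 FPKM in the dbR libraries. Every db/db library was above every control library, although dbdb replicate 3 was only just so. Insr was 1.25-fold higher in dbdb than in control (log2 fold change 0.33, 95% confidence interval 0.12 to 0.54, limma adjusted p = 0.0285). This call was lost without control replicate 1 (adjusted p = 0.0864), control replicate 3 (0.0801), dbdb replicate 1 (0.0851) or dbdb replicate 2 (0.0984), and with limma fitted without the variance trend (0.0538). In dbR vs. control the estimate was similar in size, 0.27 (0.06 to 0.48), with a limma adjusted p of 0.0609, which became 0.029 without dbdb replicate 3. Between dbR and dbdb the difference was -0.06, with an interval from -0.26 to 0.15.

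Irs1, the adaptor that docks PI 3-kinase to the activated receptor, was the most clearly separated of the genes. It lies on chromosome 1 (82233101 to 82291416, minus strand) and also has 1 transcript in the files. The control libraries held 2.12, 2.25 and 2.13 FPKM, the dbdb libraries 3.70, 3.24 and 3.19 FPKM, and the dbR libraries 3.28, 3.13 and 3.37 FPKM. The values of the db/db groups lay wholly above those of control and overlapped each other. Irs1 was upregulated 1.53-fold in dbdb vs. control (log2 fold change 0.62, 0.41 to 0.83, limma adjusted p = 0.00127) and 1.48-fold in dbR vs. control (0.57, 0.36 to 0.78, limma adjusted p = 0.00212). The dbR and dbdb groups differed by -0.05, with an interval from -0.26 to 0.16. Irs1 was called in both comparisons with control under each of the 20 alternative settings.

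Irs2, the second substrate of the insulin receptor and a known target of FoxO factors, did not follow Irs1. It lies on chromosome 8 (10984681 to 11008458, minus strand). Its level was 6.38, 4.12 and 12.7 FPKM in control, 7.37, 7.19 and 6.39 FPKM in dbdb, and 8.77, 5.88 and 5.75 FPKM in dbR. The control values enclosed all those of the db/db groups, from control replicate 2 to control replicate 3. Between dbdb and control the difference was 0.00 on the log2 scale, with an interval from -0.73 to 0.74, so that a difference of up to about that size in either direction was not detectable among these mice. The value was 0.44 without control replicate 3 and -0.37 without control replicate 2 (limma adjusted p = 0.194 and 0.371).

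Igf1 encodes insulin-like growth factor I, which in the adult comes mainly from liver and is also made within the kidney. The gene lies on chromosome 10 (87858265 to 87937042, plus strand). It was low in cortex, with 3.04, 1.37 and 2.43 FPKM in control, 1.27, 1.39 and 1.66 FPKM in dbdb, and 1.20, 2.41 and 1.18 FPKM in dbR. Control replicate 2 lay among the dbdb values, and dbR replicate 2 among the control values. The log2 fold change was -0.57 in dbdb vs. control (-1.27 to 0.13, limma adjusted p = 0.208), 0.07 in dbR vs. dbdb (adjusted p = 0.932) and -0.50 in dbR vs. control (adjusted p = 0.283). The first of these was -0.88 without control replicate 2 and -0.34 without control replicate 1 (limma adjusted p = 0.0575 and 0.498), and leaving out single libraries moved the last between -0.82 and -0.26. Of the 8 transcripts of the gene, Igf1-202, a transcript of 7052 bases, held the largest share, and it was at 1.26 ± 0.145 FPKM in control, 0.704 ± 0.15 in dbdb and 1.12 ± 0.218 in dbR. When each gene was represented by its most abundant transcript, Igf1 was called lower in dbdb vs. control (log2 fold change -0.77, limma adjusted p = 0.0194). In the same setting it was at 0.60 in dbR vs. dbdb (adjusted p = 0.181) and -0.17 in dbR vs. control (adjusted p = 0.577), neither of which was called.

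Of 8 markers of macrophages and dendritic cells, which can make Igf1, 5 were called lower in dbdb vs. control (Adgre1, Cd68, Csf1r, Cx3cr1 and Itgax), against 13.4% of all genes. The estimates of all 8 were negative there. In dbR vs. control 2 were called lower (Csf1r and Itgax), against 11.8% of all genes. Csf1r, the receptor for colony stimulating factor 1, stood at 9.50 to 13.5 FPKM in control, 3.62 to 4.79 FPKM in dbdb and 5.08 to 5.97 FPKM in dbR. The 8 markers summed to 63.0 to 76.2 FPKM in control, 27.8 to 131 FPKM in dbdb and 41.0 to 57.9 FPKM in dbR, the highest value being the library with high H2-Aa, and no marker of the list was at 0. Their part in the level of Igf1 was not tested. In whole cortex, fewer cells of a type and less RNA per cell cannot be told apart.

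Igf1r, which encodes the receptor for IGF-I, lies on chromosome 7 (67952827 to 68233668, plus strand) and was the highest of the 3 receptor genes. It was at 61.2, 59.0 and 50.5 FPKM in control, 66.7, 69.6 and 57.9 FPKM in dbdb, and 66.6, 57.3 and 61.7 FPKM in dbR. The ranges of the 3 groups overlapped, and dbdb differed from control by 0.19 on the log2 scale (-0.03 to 0.40, limma adjusted p = 0.180). Igf1r was called there only when mitochondrial transcripts were left out (0.34, adjusted p = 0.0395), a scaling that moved all genes by 0.15.

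Igf2r, the receptor that clears IGF-II, lies on chromosome 17 (12682406 to 12769664, minus strand). Its level was 42.6, 46.9 and 50.0 FPKM in control, 49.2, 47.1 and 33.7 FPKM in dbdb, and 40.0, 34.3 and 36.9 FPKM in dbR. All dbR values lay below all control values, and dbdb replicate 3 lay below the dbR range while the other dbdb mice lay within the control range. In log2 terms dbR was at -0.33 against control (-0.62 to -0.03, limma adjusted p = 0.1), and without dbdb replicate 3 the adjusted p was 0.0151. Against control, dbdb was at -0.12 (-0.41 to 0.18) and turned to 0.05 without dbdb replicate 3. It was 0.04 without mitochondrial transcripts, which is -0.11 relative to the shifted median of all genes. Between dbR and dbdb it was -0.21 (-0.50 to 0.08, limma adjusted p = 0.45), and -0.38 without dbdb replicate 3 (adjusted p = 0.0826).

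Airn, the long noncoding RNA transcribed antisense to Igf2r, overlaps the gene, and the libraries keep the strand of each RNA. The 3 Airn transcripts in the files summed to 12.1, 12.6 and 24.1 FPKM in control, 6.17, 3.04 and 3.95 FPKM in dbdb, and 5.59, 5.37 and 8.69 FPKM in dbR. Every db/db library was below every control library. With 3 mice against 3, the two-sided exact permutation test cannot go below p = 0.1, which it reached for Airn in both comparisons with control (0.24 after adjustment over 12 tests of lncRNA genes within 100 kb of the 10 genes). LNC_000421, assembled by the authors 84.1 kb from Irs2, was at 0.392 to 0.546 FPKM in control, 0.142 to 0.194 FPKM in dbdb and 0.306 to 0.439 FPKM in dbR, also with p = 0.1 by the exact permutation test in dbdb vs. control and also between dbR and dbdb (adjusted 0.24). Gm16157, near Igf1r, overlapped between dbdb and control but was at 1.21 to 1.83 FPKM in dbR against 0.746 to 1.11 FPKM in control (exact permutation p = 0.1, adjusted 0.24), and Fam169b, also near Igf1r, overlapped in every comparison.

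Igfbp4 encodes the binding protein from which IGFs are freed by the protease PAPP-A. It lies on chromosome 11 (99041244 to 99054392, plus strand). Its level was 295, 271 and 285 FPKM in control, 350, 413 and 417 FPKM in dbdb, and 375, 390 and 409 FPKM in dbR. All db/db libraries, treated or not, were above all control libraries. Igfbp4 was upregulated 1.38-fold in dbdb vs. control (log2 fold change 0.47, 0.29 to 0.65, limma adjusted p = 0.00244) and 1.38-fold in dbR vs. control (0.47, 0.29 to 0.65, limma adjusted p = 0.00264), and it was called in both under each of the 20 alternative settings. Between dbR and dbdb the difference was -0.0027, with an interval from -0.18 to 0.18. Its main transcripts, Igfbp4-201 and Igfbp4-204, were both higher in the db/db groups, the first with 181 ± 9.48, 243 ± 26.3 and 244 ± 19.5 FPKM in control, dbdb and dbR and the second with 102 ± 4.98, 150 ± 17.7 and 148 ± 4.11 FPKM.

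Many, but not all, markers of the distal nephron were higher in the same libraries. All 4 genes of the distal convoluted tubule (Slc12a3, Trpm6, Pvalb and Wnk1) and all 5 of intercalated cells were called higher in both comparisons with control, against 13.1% of all genes in dbdb and 12.3% in dbR. The former summed to 245 to 271 FPKM in control, 405 to 450 FPKM in dbdb and 443 to 499 FPKM in dbR, the latter to 38.5 to 43.0, 68.5 to 79.4 and 72.5 to 79.7 FPKM. Of 7 collecting duct genes, 5 and 6 were called higher in the 2 comparisons, with sums of 127 to 151 FPKM in control, 197 to 291 FPKM in dbdb and 216 to 235 FPKM in dbR, and no marker of these lists was at 0. Of that list, Aqp3 was called in neither (0.20 and 0.10), and Fxyd4 was at -0.18 in dbdb vs. control. Of 6 markers of the thick ascending limb and macula densa, none was called higher and Cldn10 was called lower in dbdb vs. control (-0.89). In dbR vs. control 3 were called higher (Slc12a1, Cldn16 and Nos1) and Cldn10 lower (-0.51), and between dbR and dbdb limma called 0 of the 6, with 2 at an unadjusted p under 0.05. Their sum was 466 to 560, 386 to 582 and 467 to 536 FPKM. Markers of podocytes, in which 4 of 7 genes were called higher in dbdb vs. control, summed to 81.9 to 93.5, 101 to 105 and 89.7 to 106 FPKM. The part of these cell types in the levels of Irs1, Insr and Igfbp4 was not tested.

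Igfbp3 encodes the main carrier of IGF-I in blood, which in kidney is made largely by endothelial and interstitial cells. It lies on chromosome 11 (7206086 to 7213923, minus strand), with its end 3.54 kb from the end of Igfbp1 (7197782 to 7202546, plus strand). Igfbp3 was at 47.1, 55.2 and 52.7 FPKM in control, 40.7, 40.1 and 53.8 FPKM in dbdb, and 58.1, 75.9 and 65.3 FPKM in dbR. The dbR libraries were above all others, and dbdb replicate 3 lay in the control range while the other dbdb mice were below it. Igfbp3 differed between dbR and dbdb by 0.57 on the log2 scale (0.29 to 0.86), with an unadjusted p of 0.00124 and a limma adjusted p of 0.0708 over all genes. Without dbdb replicate 3 it was 0.71 (adjusted p = 0.0346), and in dbdb vs. control it was then -0.35 (adjusted p = 0.0487) in place of -0.21 (adjusted p = 0.247). In dbR vs. control the log2 fold change was 0.36 (0.07 to 0.64, adjusted p = 0.0692), which was past the threshold under 5 of the 20 alternative settings, among them without dbdb replicate 3 (adjusted p = 0.0274). The transcript Igfbp3-201 held 94.1% to 96.5% of the gene's FPKM in every library.

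The summed level of 9 endothelial markers ran in the same order over the groups as Igfbp3, although only some of the markers did. They summed to 171 to 190 FPKM in control, 147 to 162 FPKM in dbdb and 193 to 215 FPKM in dbR, and none was at 0. Against control, 4 of the 9 were called lower in dbdb (Pecam1, Cdh5, Kdr and Emcn), where 13.4% of all genes were. In dbR vs. dbdb 3 were called higher (Kdr, Emcn and Tek), where 0.564% of all genes were. Flt1, Tek, Ehd3 and Plvap had their lowest group mean in control rather than in dbdb. They were called higher in dbR vs. control, against 12.3% of all genes. Pecam1 was level between dbR and control (21.6 ± 2.51 and 21.8 ± 1.63 FPKM). Emcn, the endothelial sialoglycoprotein endomucin, was at 35.2 to 37.3, 22.8 to 24.3 and 33.0 to 42.4 FPKM in control, dbdb and dbR. In the library with the highest Igfbp3 of the dbdb group, replicate 3, the endothelial sum was the lowest of the group, at 147 FPKM. Of 11 markers of mesangial cells, pericytes, fibroblasts and smooth muscle, only Pdgfrb was called in dbR vs. dbdb (log2 fold change 0.69, limma adjusted p = 0.0234), against 0.743% of all genes. The 11 summed to 88.9 to 110, 75 to 112 and 94.5 to 128 FPKM in control, dbdb and dbR. In dbdb replicate 3 their sum was the highest of its group, at 112 FPKM. The part of these cells in the level of Igfbp3 was not tested.

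**Figure D3:**
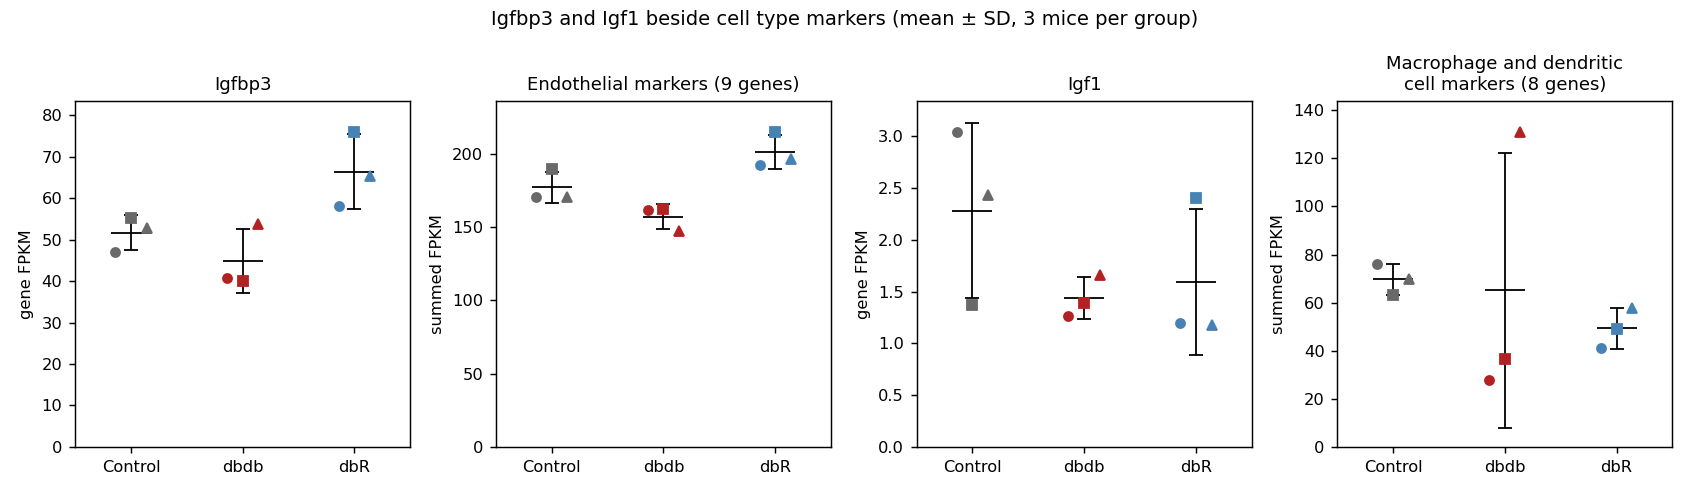
Gene FPKM of Igfbp3 and Igf1 and summed FPKM of endothelial and of macrophage and dendritic cell markers (vertical axes, from 0) in the 3 libraries of each group (horizontal axes), with circles, squares and triangles for replicates 1, 2 and 3 and bars for the mean ± SD. Igfbp3 and the endothelial sum are both highest in the 3 dbR libraries, and the macrophage sum of dbdb replicate 3, at 131 FPKM, stands far above the rest of its group.

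Igfbp5, which encodes a binding protein that is held in the extracellular matrix, lies on chromosome 1 (72857932 to 72874884, minus strand). Its level was 117, 130 and 113 FPKM in control, 107, 108 and 100.3 FPKM in dbdb, and 118, 112 and 111 FPKM in dbR. The dbdb libraries were below all others by a narrow margin. The log2 fold change was -0.19 in dbdb vs. control (-0.33 to -0.04, limma adjusted p = 0.0623), which passed the threshold without control replicate 3 (-0.23, adjusted p = 0.0476). It was 0.11 in dbR vs. dbdb (-0.04 to 0.26, adjusted p = 0.423) and -0.08 in dbR vs. control (-0.22 to 0.07, adjusted p = 0.444).

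Igfbp1, the binding protein whose gene insulin represses through the element shown above, had the largest estimate of the 10 genes in dbR vs. dbdb in the main analysis and a wide spread. It was at 3.38, 4.16 and 5.81 FPKM in control, 5.61, 3.22 and 3.18 FPKM in dbdb, and 9.68, 6.35 and 4.96 FPKM in dbR. The lowest dbR library lay below the highest dbdb and control libraries, so no pair of groups was separate. Its log2 fold change was -0.16 in dbdb vs. control (-0.81 to 0.48, limma adjusted p = 0.711), 0.79 in dbR vs. dbdb (0.14 to 1.43, unadjusted p = 0.0214 and adjusted p = 0.2 by limma) and 0.62 in dbR vs. control (-0.02 to 1.27, adjusted p = 0.148). Leaving out single libraries moved the value in dbR vs. dbdb between 0.53, without dbR replicate 1, and 1.05. The value in dbR vs. control moved between 0.36 without dbR replicate 1 and 0.84 without dbR replicate 3 (limma adjusted p = 0.422 and 0.0844). No alternative setting brought Igfbp1 past the threshold in any of the 3 comparisons.

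Among the other ligands, receptors, binding proteins and proteases of the system, 14 of 17 genes were tested, and Ins1, Ins2 and Igfbpl1 were below the minimum level. In dbdb mice Insrr and Pappa were called higher and Esm1, Htra1 and Ide lower than in control, 5 of 14 against 26.4% of all genes (median log2 fold change of the list -0.09). Insrr, the insulin receptor-related receptor of intercalated cells that senses alkali, rose from 2.16 to 2.55 FPKM in control to 3.78 to 4.09 FPKM in dbdb (log2 fold change 0.69, limma adjusted p = 0.00118) and remained at 3.88 to 4.64 FPKM in dbR. Pappa, which encodes the Igfbp4 protease PAPP-A, was at 0.747 to 0.770 FPKM in control and 1.32 to 2.03 FPKM in dbdb (1.09, adjusted p = 0.00101) and was also called higher in dbR vs. control (0.71, adjusted p = 0.00996). Ide, the insulin-degrading enzyme, was lower in both db/db groups, with log2 fold changes of -0.41 and -0.38, as was the secreted protease gene Htra1 with -0.48 and -0.58.

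In dbR vs. dbdb, 2 of these 14 genes were called, both higher, against 0.564% of all genes called higher. Esm1, an endothelial proteoglycan once grouped with the IGF binding proteins, fell from 15.8 to 20.3 FPKM in control to 6.77 to 7.40 FPKM in dbdb and stood at 12 to 13.7 FPKM in dbR, with no overlap between any groups (log2 fold change -1.36 in dbdb vs. control, 0.85 in dbR vs. dbdb with limma adjusted p = 0.014, and -0.51 in dbR vs. control). Pappa2, which encodes the protease of Igfbp3 and Igfbp5 that is made in the macula densa region, was at 0.247 to 0.360 FPKM in control, 0.186 to 0.378 FPKM in dbdb and 0.639 to 1.13 FPKM in dbR (1.49 in dbR vs. dbdb, limma adjusted p = 0.0419). Against control, 4 of the 14 were called higher in dbR, among them Igfbp7, the most abundant of these genes at 756 to 1065 FPKM over all libraries (0.31, limma adjusted p = 0.0253), and 3 lower, against 12.3% and 11.8% of all genes, and the list's median was 0.07.

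Downstream of the receptors, 30 of 31 adaptors and members of the PI 3-kinase, AKT and mTORC1 relay were tested. Of these, 5 were called higher and 3 lower in dbdb vs. control, 8 of 30 against 26.4% of all genes, with a median of 0.00 for the list. Mtor, the kinase of mTORC1 and mTORC2, was at 45.0 to 53.6 FPKM in control, 30.5 to 39.8 FPKM in dbdb and 29.8 to 32.1 FPKM in dbR (log2 fold change -0.49, limma adjusted p = 0.0057, and -0.68 in dbR vs. control). Pik3ca, the catalytic subunit p110α, also fell in both (-0.35 and -0.31), whereas Pik3r3, a regulatory subunit of PI 3-kinase, rose in both (0.47 and 0.75). Rps6kb2, an S6 kinase, rose in dbdb vs. control (0.33, adjusted p = 0.0278, against 0.12 in dbR vs. control), and the difference between these was not called (dbR vs. dbdb -0.21, adjusted p = 0.288). Sh2b2, an adaptor of the insulin receptor, was low at 0.311 to 0.564, 0.0962 to 0.295 and 0.349 to 0.588 FPKM in the 3 groups (-1.05 in dbdb vs. control, adjusted p = 0.0327). Against control, dbR mice had 1 of the 30 called higher (Pik3r3) and 4 lower (Sos1, Pik3ca, Pik3cb and Mtor), against 12.3% and 11.8% of all genes. Between dbR and dbdb, limma called 0 of the 30, with 4 at an unadjusted p under 0.05.

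Of 16 negative regulators of insulin signalling, 3 were called higher in dbdb vs. control and none lower, against 26.4% of all genes called and 13.1% called higher. Ptpn1, the tyrosine phosphatase PTP1B, which dephosphorylates the insulin receptor, was at 8.67 to 9.84 FPKM in control, 13.1 to 16.7 FPKM in dbdb and 10.2 to 12 FPKM in dbR, in 3 separate ranges. Its log2 fold change was 0.72 in dbdb vs. control (limma adjusted p = 9.04e-04), -0.42 in dbR vs. dbdb (adjusted p = 0.0834) and 0.30 in dbR vs. control (adjusted p = 0.0593). Ptprf, the receptor phosphatase LAR, and Grb14, an inhibitory adaptor of the insulin receptor, rose in both comparisons with control (0.57 and 0.49 for Ptprf, 0.53 and 0.45 for Grb14), and the AKT phosphatase gene Phlpp2 was called lower in dbR vs. control (-0.37). In dbR vs. dbdb limma called 0 of the 16, with 4 at an unadjusted p under 0.05. The list's median was 0.05, -0.07 and 0.07 in the 3 comparisons.

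The FoxO factors and their known targets were mostly higher in the db/db groups where they were called. In dbdb vs. control, 8 of the 17 tested genes were called higher and none lower (Foxo1, Foxo3, Pck1, G6pc, Pdk4, Sesn1, Sesn3 and Txnip), against 13.1% of all genes called higher, with a median of 0.33 for the list. By limma 12 had an unadjusted p under 0.05, among them Bcl6, Ccng2 and Cited2, which were lower (-0.89, -0.27 and -0.25). Foxo3 stood at 17.5 to 19.8 FPKM in control, 40.5 to 42.3 FPKM in dbdb and 30.2 to 35.3 FPKM in dbR, again in 3 separate ranges (log2 fold change 1.18 in dbdb vs. control, -0.36 in dbR vs. dbdb with adjusted p = 0.0554, and 0.82 in dbR vs. control, by limma). Foxo1 followed the same order, at 9.56 to 10.1, 15.6 to 18.3 and 12 to 13.7 FPKM. Pck1 and G6pc, the gluconeogenic enzymes phosphoenolpyruvate carboxykinase and glucose-6-phosphatase, rose by 1.41 and 1.43 and were 1.42 and 1.24 above control in dbR, and in dbR vs. dbdb they differed by 0.01 and -0.20. Txnip, the thioredoxin-interacting protein that is induced by glucose, was 1.04 and 0.87 above control.

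Pdk4, the kinase that shuts off pyruvate dehydrogenase, was the only gene of this list called in dbR vs. dbdb. It was at 1.2 to 1.5 FPKM in control, 3.64 to 5.21 FPKM in dbdb and 1.95 to 2.18 FPKM in dbR, so that the 3 groups did not overlap. Pdk4 changed by 1.60 in dbdb vs. control, -0.98 in dbR vs. dbdb (limma adjusted p = 0.0254) and 0.62 in dbR vs. control. Against the same control libraries, 8 of the 17 genes were called higher in dbR and Ccng2 was called lower (-0.38), where 12.3% and 11.8% of all genes were. Igfbp1 and Irs2, which belong to the same class of targets in liver, were not called in any comparison, as given above.

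**Figure D4:**
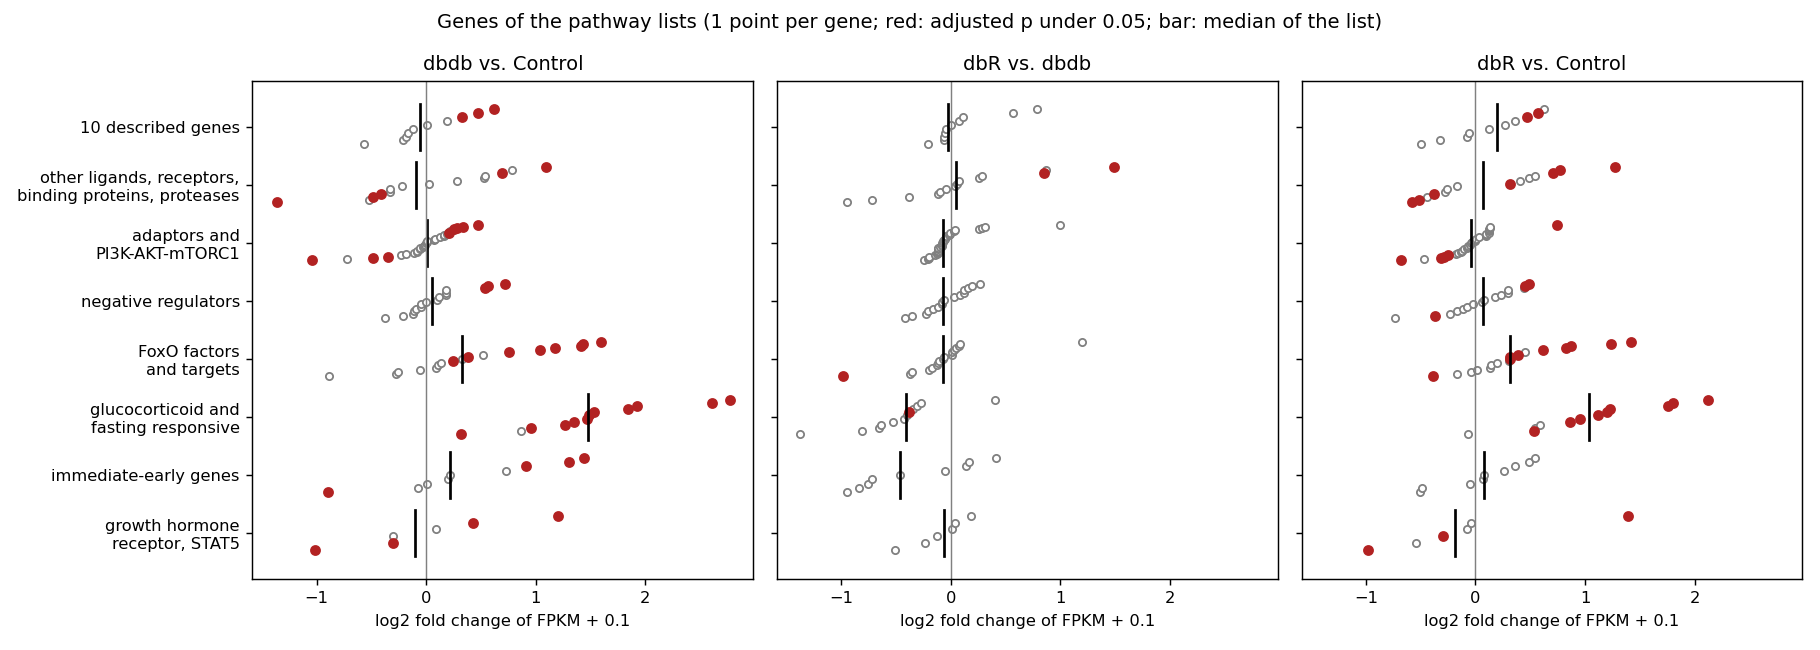
Log2 fold change of FPKM + 0.1 (horizontal axes) of every tested gene of the 10 described genes and 7 related lists (vertical axis) in the 3 comparisons, with 1 point per gene, red where the adjusted p was under 0.05, and a black bar for the median of each list. In dbdb vs. control the glucocorticoid and fasting responsive genes have a median of 1.48 and the FoxO list 0.33, and in dbR vs. dbdb only Esm1, Pappa2, Pdk4 and Klf9 are red.

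Genes that respond to glucocorticoids and fasting were examined beside the FoxO targets because several genes, Pck1 and Igfbp1 among them, answer to both. This list, like the others, was chosen with earlier results of these data known, so its share of called genes is a description only. In dbdb vs. control, 11 of 12 tested genes were called higher, against 13.1% of all genes, with a median of 1.48, and the sum of the list was 348 to 412 FPKM in control, 968 to 1127 FPKM in dbdb and 659 to 907 FPKM in dbR. Zbtb16, a zinc finger factor induced by glucocorticoids, had the largest change (2.78, and 2.12 in dbR vs. control). It was followed by Sgk1, the serum and glucocorticoid regulated kinase (2.61 and 1.80), Angptl4, an inhibitor of lipoprotein lipase (1.92 and 0.54, the second not called, and -1.38 in dbR vs. dbdb with a limma adjusted p of 0.088), and Fkbp5, a co-chaperone of the glucocorticoid receptor (1.85 and 1.20). Dusp1, a phosphatase of MAP kinases, was 1.53 and 1.22 above control. Of the 12, 9 were called higher in dbR vs. control, against 12.3% of all genes, Lcn2 among the largest with 1.76, and in dbR vs. dbdb Klf9, a glucocorticoid-induced Krüppel-like factor, was called lower (-0.38, limma adjusted p = 0.0389) with a list median of -0.41. The time since the last meal and the time of day when the cortex was taken are not given in the sources used here, nor is gavage of the control mice, and their part in these levels was not tested.

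Immediate-early genes, which rise with handling and with growth factors alike, were called in both directions in dbdb. Jun, Ier3 and Nr4a1 were called higher and Egr2 lower among 9 tested in dbdb vs. control, against 13.1% and 13.4% of all genes (log2 fold changes of 0.91, 1.31, 1.44 and -0.90). The list summed to 34.0 to 43.3 FPKM in control, 64.5 to 88.2 FPKM in dbdb and 37.7 to 55.5 FPKM in dbR. In dbR vs. dbdb and in dbR vs. control limma called 0 of the 9, with 3 and 1 at an unadjusted p under 0.05.

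Growth hormone drives Igf1 transcription through its receptor, JAK2 and STAT5, and 6 genes of this axis were tested. Ghr, the growth hormone receptor, was at 412, 365 and 438 FPKM in control, 213, 195 and 191 FPKM in dbdb, and 199.97, 197 and 216 FPKM in dbR. The db/db values were far below those of control and overlapped each other. The log2 fold change was -1.02 in dbdb vs. control (limma adjusted p = 3.52e-05), 0.03 in dbR vs. dbdb (adjusted p = 0.868) and -0.98 in dbR vs. control (adjusted p = 4.70e-05). Jak2 was lower by a smaller amount (-0.30 in each), and Stat5a was called higher in dbdb vs. control (0.43), with -0.08 in dbR vs. control and -0.51 in dbR vs. dbdb, of which neither was called (limma adjusted p = 0.702 and 0.0955). Prlr, the prolactin receptor, was called higher in both (1.21 and 1.39). In control replicate 3 it stood at 5.32 FPKM, against 16.9 and 17.8 FPKM in the other control mice and 25.0 to 34.4 FPKM in the db/db mice. Rosiglitazone-treated and vehicle-treated db/db mice differed in 0 of the 6 by limma, with 1 at an unadjusted p under 0.05.

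The genes whose log2 levels followed the widest-ranging of the 10 genes most closely over the 9 libraries were sought among all tested genes, as a description, since the libraries share their groups and depth. For Igfbp1 these were Emid1, Dnaaf1 and Srpk3, with Pearson correlations of 0.93, 0.92 and 0.89. For Irs1 they were Gpatch8, Ehbp1 and Fam222a, with correlations of 0.99, 0.99 and 0.98. For Igfbp3 they were Fer, Tmem123 and Chmp3, with correlations of 0.97, 0.95 and 0.94. None of these 9 is a gene of the lists described here.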

How the data were processed

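RNA-seq of renal cortex from 9 mice, in 3 groups of 3 taken from the sample labels, was analysed. Per the labels, the authors built directional libraries from RNA freed of rRNA, aligned the reads with TopHat2 2.0.9 to GRCm38.p2 and computed FPKM per transcript with Cufflinks 2.1.1, and these deposited FPKM values were used. FPKM is scaled by length and by mapped fragments, so a class of RNA that takes a larger share lowers all others, and the division of reads between transcripts is an estimate. Gene FPKM is the sum of the FPKM of a gene's mRNA transcripts. Counts were not recovered, and no count test was run.

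Genes with a mean of at least 0.1 FPKM were fitted as log2(FPKM + 0.1) with limma 3.58.1 (R 4.3.3), with a variance trend and all 3 groups in 1 model, after a test on simulated data. P-values were two-sided and adjusted by Benjamini-Hochberg over all genes tested. The lncRNA genes were compared by exact permutation tests (scipy 1.17.1). Gene positions are those of GENCODE on GRCm38, and promoters those of RefSeq (GRCm38.p6). What the replicate numbers stand for is not given in the sources used here. With the group means taken off, same-numbered libraries correlated between -0.175 and 0.0615 and others between -0.108 and 0.168. With so few libraries this cannot tell whether the numbers pair the mice.

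The 10 genes and the lists were chosen with earlier results of these data known. Named genes are all 10, the called genes of the 7 related lists (at most the 5 largest changes per list and comparison) and the 3 genes most like each of the 3 widest-ranging of the 10. Foxo1, Sesn1, Sesn3, Ccng2, Bcl6, Cited2 and Igfbp7 were named in addition, after their values were seen, and markers were named from 13 cell type lists. The alternatives were other pseudocounts, filters and scalings, the most abundant transcript, 6 libraries per fit, no trend, a replicate block and each library left out.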

Additional observations from a re-analysis of the deposited data

How the results depend on the processing

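Each comparison of the 10 genes was repeated under 20 alternative settings. In dbdb vs. control 3 genes were called in the main analysis, and in dbR vs. control 2. Irs1 and Igfbp4 were called in both under all 20, with adjusted p of at most 0.0138 by limma. The number called in dbR vs. control was 4 with 75th percentile scaling, with quantile normalization and without mitochondrial transcripts (Insr and Igfbp3 added) and 5 with only the 6 libraries of the comparison (Igf2r also added). In dbdb vs. control the number was 4 without mitochondrial transcripts (Igf1r added) and with the most abundant transcript (Igf1 added) and 2 without the variance trend (Insr lost). Leaving out each library in turn gave 2 to 4 called genes in dbdb vs. control, where Insr was lost in 4 of the 9, Igfbp3 was gained without dbdb replicate 3 and Igfbp5 without control replicate 3. It gave 0 to 1 called genes in dbR vs. dbdb and 2 to 5 in dbR vs. control, the highest each time without dbdb replicate 3. In dbR vs. control no dbdb library enters the estimate, so the estimates were unchanged and the p-values moved with the spread shared by the groups. For dbR vs. dbdb the cause was not tested.

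Estimates that changed sign were not called in either setting. Irs2 in dbdb vs. control turned to -0.011 with a pseudocount of 1 and -0.029 with quantile normalization. In dbR vs. dbdb, Igfbp4 turned to 0.021 with 75th percentile scaling and 0.0072 with the most abundant transcript, and Igf1 to -0.00067 with quantile normalization. Without mitochondrial transcripts, Igf2r in dbdb vs. control was 0.041, and in dbR vs. control Irs2 was 0.035 and Igfbp5 0.018, a scaling that shifts all genes and under which these 3 stayed at -0.11, -0.054 and -0.071 relative to the median of all genes. When single libraries were left out, the values in dbdb vs. control ran from -0.37 to 0.44 for Irs2, -0.22 to 0.054 for Igf2r and -0.43 to 0.042 for Igfbp1. In dbR vs. dbdb they ran from -0.086 to 0.018 for Irs1, -0.26 to 0.043 for Irs2, -0.25 to 0.24 for Igf1 and -0.085 to 0.041 for Igfbp4, and in dbR vs. control from -0.43 to 0.37 for Irs2.

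With the replicate number as a block, 3, 0 and 2 of the 10 genes were called in dbdb vs. control, dbR vs. dbdb and dbR vs. control. Same-numbered libraries correlated at no more than 0.0615, which cannot tell whether the numbers pair the mice. Over all genes, the count in dbR vs. dbdb depended most on the setting, with 108 in the main analysis, 23 under the replicate block, 18 without the variance trend, 31 without a filter, 36 with only 6 libraries, 49 with the most abundant transcript, 166 at a mean of at least 1 FPKM, 203 with 75th percentile scaling and 234 with quantile normalization. It fell to 2 without dbR replicate 2, 10 without dbR replicate 3, 31 without dbdb replicate 2, 36 without dbdb replicate 1, 70 without dbR replicate 1 and 72 without control replicate 2, and was 141 without dbdb replicate 3. FPKM carries no counts, and with 3 mice per group differences whose intervals span 0 were not detectable.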
